A study of Mus musculus with 6 samples.

Results

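The genes that carry the earliest steps of B cell receptor (BCR) signaling were compared between germinal center (GC) and naive B cells from the Peyer's patches of mice. The 10 genes were the receptor chains Cd79a and Cd79b, the Src family kinases Lyn, Blk and Fyn, the kinases Syk and Btk, the adaptor Blnk, the phospholipase Plcg2 and the protein kinase C gene Prkcb. They were chosen by name, as rows whose Ensembl identifier maps to one of these symbols, and all 10 were found among the 39179 identifiers of the expression table. Both populations came from the ileal Peyer's patches of wild-type C57BL/6 female mice aged 12 weeks. GC B cells were sorted as Fas+GL7+ and naive, or resting, B cells as Fas-GL7-, within a B cell gate, so the naive gate rests on the absence of GC markers and not on a marker of its own. For each population 3 replicates were sorted, every one from the combined cells of 5 littermate mice. RNA sequencing gave FPKM values, which were rescaled within each pool to TPM (transcripts per 1000000), a unit that corrects for transcript length. Levels of different genes can then be set side by side, but only roughly. Other differences between genes, such as base composition, are not corrected and are not seen in the spread between pools.

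CD79A and CD79B are the signaling partners of surface immunoglobulin and carry the tyrosine motifs that are phosphorylated when antigen binds. Src family kinases place these phosphates, SYK docks on them and becomes active, and the adaptor BLNK then brings BTK and phospholipase C gamma 2 together so that the lipase can be activated. The lipase makes the messengers that release calcium and, with it, activate protein kinase C beta, which passes the signal on to NF-kappaB. GC B cells are known for rapid division, antibody gene mutation and selection by affinity, and the strength of the BCR signal they pass on has long been studied.

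The pools matched their gates. Fas was at 108 to 119 TPM in the GC pools and at 3.03 to 3.59 TPM in the naive pools, all 5 GC B cell markers were higher in GC pools and all 5 naive B cell markers were lower. The 4 pan-B cell markers summed to 1693 to 1768 TPM in GC pools and 1849 to 1997 TPM in naive pools. All 7 T cell markers were under 2 TPM in every pool (sums of 2.18 to 4.22 in GC and 1.87 to 2.67 in naive), as were 6 of 7 myeloid markers, with Fcgr1 at 0 throughout and sums of 2.29 to 2.70 and 5.09 to 7.87. Gut epithelial transcripts were present in both sorts and uneven: the 8 markers summed to 61.6, 136 and 66.6 TPM in GC replicates 1, 2 and 3 and to 181 to 216 TPM in the naive pools. The 3 plasma cell markers did not move together. Jchain was 669 ± 20.3 TPM in GC and 33.3 ± 9.77 TPM in naive pools and made up nearly all of their sum (663 to 698 and 26.3 to 44.9 TPM). Prdm1 and Sdc1, named after their values were seen, were low: Prdm1 was higher in GC (5.01 against 0.955 TPM, adjusted p = 3.77e-05, limma) and Sdc1, a surface marker of plasma cells, was lower (1.51 against 3.19 TPM, log2 fold change -0.75, adjusted p = 0.0153, limma). The steps between low FPKM values point to roughly 9700000 to 16200000 reads per pool, an estimate too rough to recover counts. The part that epithelial and plasma cell transcripts play in the differences below was not tested.

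All 10 proximal BCR genes differed between the populations, 4 higher and 6 lower in GC B cells, at an adjusted p under 0.05 (limma on log2(TPM + 1), Benjamini-Hochberg over 12785 genes tested). Fyn, Syk, Blnk and Plcg2 were higher in GC B cells, and Cd79a, Cd79b, Lyn, Blk, Btk and Prkcb were lower. This count must be read against the background: 65.6% of all genes tested passed the same threshold, 35.5% higher and 30.1% lower in GC. For each of the 10 genes, the values of the 3 GC pools lay apart from those of the 3 naive pools, and the same was true of 70.7% of all genes tested. The sizes were moderate, on the log2(TPM + 1) scale, which understates changes of genes with low levels. Cd79a alone changed by 2-fold or more, whereas 25.4% of all genes tested were called with at least that change, and the median absolute log2 fold change was 0.53 over the 10 genes and 0.54 over all genes. The median signed log2 fold change was -0.47 over the 10 genes and 0.03 over all genes. In sorted bulk RNA, a lower value from fewer cells of a type and one from less RNA per cell cannot be told apart, here and in every comparison that follows.

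**Figure D1:**
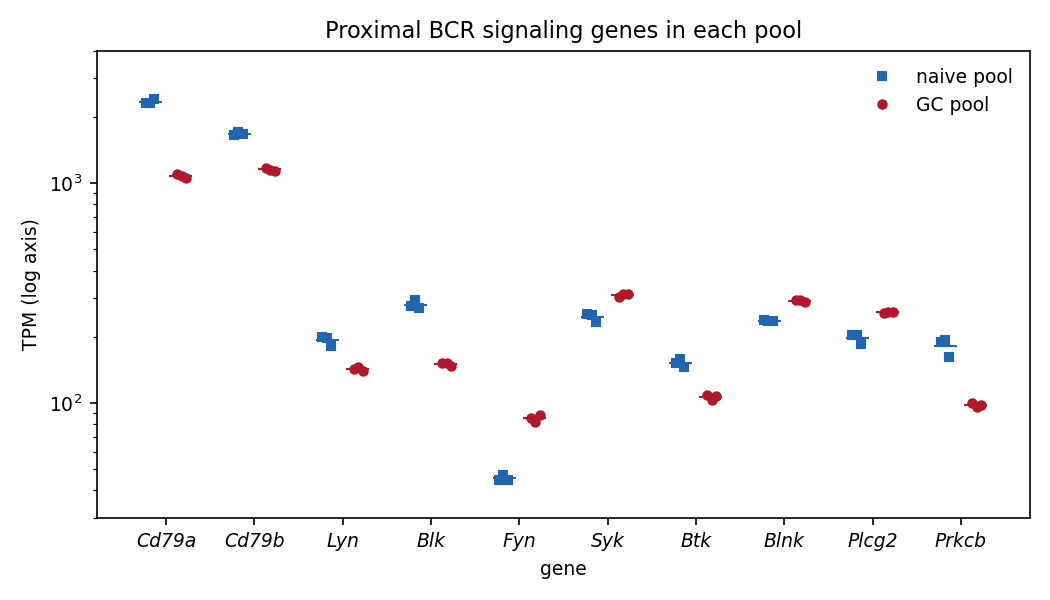
Level of each of the 10 proximal BCR genes (TPM, log axis) in the 3 GC pools and the 3 naive pools, with points for pools and bars for group means. For every gene the points of one population lie wholly above those of the other, with Cd79a falling from a naive mean of 2349 to a GC mean of 1077 TPM and Fyn rising from 45.4 to 85.3 TPM.

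**Figure D2:**
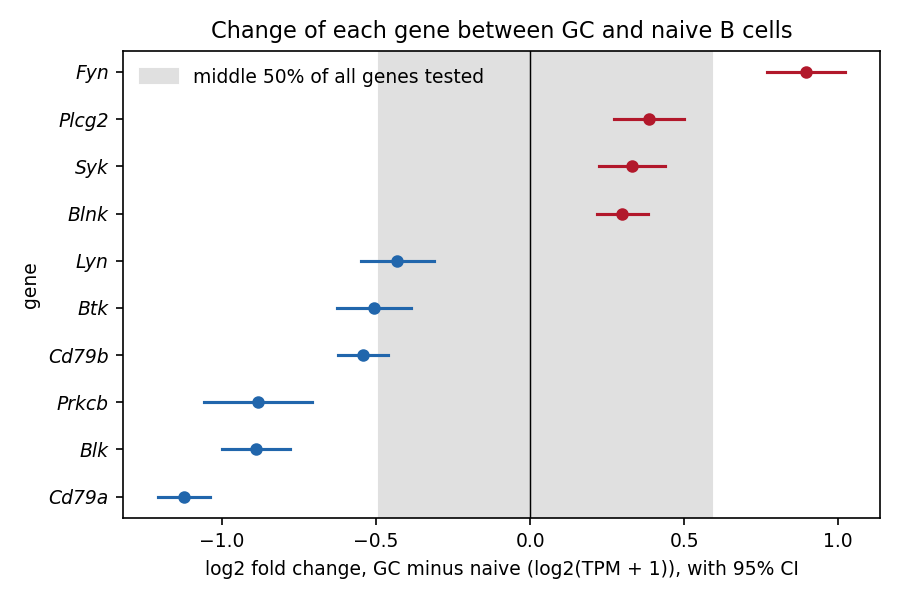
Log2 fold change, GC minus naive, on the log2(TPM + 1) scale for the 10 genes with 95% confidence intervals from limma; the band marks the middle 50% of all genes tested. Cd79a, Blk and Prkcb lie wholly to the left of the band and Fyn wholly to the right; Cd79b and Btk sit at its left edge, and the estimates of Syk, Blnk, Plcg2 and Lyn are inside it, with no interval reaching 0.

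The order of the levels also differed. In naive B cells it ran, from high to low, Cd79a, Cd79b, Blk, Syk, Blnk, Plcg2, Lyn, Prkcb, Btk and Fyn, and 3 of the 9 neighboring pairs overlapped between pools (Syk with Blnk, Plcg2 with Lyn, and Lyn with Prkcb). In GC B cells it ran Cd79b, Cd79a, Syk, Blnk, Plcg2, Blk, Lyn, Btk, Prkcb and Fyn, with no overlap in any of the 9 pairs. Blk, above Syk in naive B cells, was thus below Syk, Blnk and Plcg2 in GC B cells. Overlap reflects only the spread between pools. Bias between genes is not part of it, so genes at close levels are ordered only roughly.

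Promoter sequence of 4 of these genes is shown because it sets a pair that was lower in GC (Cd79a, Prkcb) beside a pair that was higher (Plcg2, Blnk). The sequences are from RefSeq on GRCm38.p6 and run up to the last base before the annotated gene, read on the gene's strand: Cd79a chr7:24897247-24897496 (plus strand), Prkcb chr7:122288875-122289103 (plus), Plcg2 chr8:117498025-117498274 (plus) and Blnk chr19:40994222-40994471 (minus). Capitals mark matches, on either strand, to the letters of motifs linked to B cell or general promoters.
Cd79a: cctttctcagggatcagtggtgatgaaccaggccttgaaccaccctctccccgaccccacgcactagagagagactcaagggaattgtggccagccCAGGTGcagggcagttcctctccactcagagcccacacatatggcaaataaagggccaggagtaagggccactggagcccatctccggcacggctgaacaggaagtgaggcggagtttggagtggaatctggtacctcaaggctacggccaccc
Prkcb: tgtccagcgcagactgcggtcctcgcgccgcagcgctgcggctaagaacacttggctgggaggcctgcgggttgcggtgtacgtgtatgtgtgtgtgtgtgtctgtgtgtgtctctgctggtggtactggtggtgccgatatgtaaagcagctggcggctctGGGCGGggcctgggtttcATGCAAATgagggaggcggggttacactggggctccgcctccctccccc
Plcg2: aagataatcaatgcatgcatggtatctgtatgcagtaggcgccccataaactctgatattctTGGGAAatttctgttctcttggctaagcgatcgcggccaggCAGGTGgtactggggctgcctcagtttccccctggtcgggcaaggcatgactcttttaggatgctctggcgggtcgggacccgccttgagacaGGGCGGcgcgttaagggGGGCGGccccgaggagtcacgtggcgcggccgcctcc
Blnk: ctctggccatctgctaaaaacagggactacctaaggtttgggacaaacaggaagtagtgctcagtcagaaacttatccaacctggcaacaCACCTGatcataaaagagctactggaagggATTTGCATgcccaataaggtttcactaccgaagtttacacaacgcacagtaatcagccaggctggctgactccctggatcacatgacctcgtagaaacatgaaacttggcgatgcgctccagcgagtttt
The octamer ATGCAAAT, the site of OCT factors in immunoglobulin promoters, was found in Prkcb at bases -70 to -63 from the start site of the promoter table, which lies 21 bases past the end of the sequence printed, and, on the opposite strand, in Blnk at -130 to -123, so it occurred in a gene that was lower and in a gene that was higher in GC B cells. It was present in 2 of 8 windows of 250 bases before a start site, which covered 7 of the 10 genes with Syk having a pair of start sites, and in 1.6% of all 32851 promoters. The E-box CAGGTG bound by E2A was found in 5 of 8 windows (Cd79a, Plcg2, Blnk and both of Syk) and in 17.2% of all promoters. The GC box GGGCGG was found in 3 of 8 windows (Prkcb, Plcg2, Fyn) against 32.7%, and the Ikaros core TGGGAA in 2 (Plcg2, Btk) against 21.6%. Both windows of Syk and that of Btk lay wholly inside the annotated gene. The Fyn match lay in the 56 bases of its window that were inside the gene. A palindromic form of the EBF1 motif, the ETS letters GAGGAAG and the TATA box TATAAA were found in none of the 8 windows. They were found in 0.779%, 10.6% and 12.4% of all promoters. Only these forms were searched, with no mismatch allowed. EBF1 and ETS sites with other letters were not searched for, so these windows, that of Cd79a included, may still hold such sites. None of the marked matches overlapped one another, and a match describes letters only.

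Both receptor chains were lower in GC B cells, and by unequal amounts. Cd79a (ENSMUSG00000003379, chromosome 7, 24897497 to 24901858 on GRCm38.p6) encodes Ig-alpha. Its level was 1099, 1074 and 1057 TPM in GC replicates 1, 2 and 3 and 2326, 2319 and 2402 TPM in naive replicates 1, 2 and 3. Every naive pool was thus more than 2-fold above every GC pool. The means were 1077 ± 21.1 and 2349 ± 46.0 TPM (SD, n = 3 pools each), 2.18-fold lower in GC, a log2 fold change of -1.12 ± 0.03 (SE; adjusted p = 9.89e-07, limma). A change of at least this size was seen for 23.1% of all genes tested. Cd79b (ENSMUSG00000040592, chromosome 11, 106311341 to 106314562) encodes Ig-beta, the partner in the heterodimer. Its level was 1176, 1148 and 1137 TPM in GC pools and 1659, 1710 and 1674 TPM in naive pools. It too was lower in each GC pool than in any naive pool, by 1.46-fold on the means (log2 fold change -0.54 ± 0.03, adjusted p = 1.97e-05, limma).

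The balance between the receptor chains therefore shifted. The ratio of Cd79b to Cd79a TPM was 1.07 ± 0.00326 in GC pools and 0.716 ± 0.0203 in naive pools (SD, n = 3 each). The order of the chains by TPM was opposite in the 2 populations, though the order of different genes is only rough. Their summed level was 2230 ± 41.4 TPM in GC and 4030 ± 45.8 TPM in naive pools. Even so, both stayed among the most abundant transcripts: Cd79a ranked 142 in GC and 64 in naive B cells among 12785 genes by mean TPM, and Cd79b ranked 131 and 94.

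The Src family kinases did not move together. Blk (ENSMUSG00000014453, chromosome 14, 63372837 to 63417187), a kinase largely restricted to the B lineage, was at 152, 152 and 148 TPM in GC pools and 277, 293 and 270 TPM in naive pools. Its mean was 1.85-fold lower in GC (150.5 ± 2.51 against 280 ± 12.1 TPM; log2 fold change -0.89 ± 0.05, adjusted p = 8.24e-06, limma). Lyn (ENSMUSG00000042228, chromosome 4, 3678068 to 3791612), which both starts BCR signaling and phosphorylates inhibitory receptors, was at 143, 145 and 140 TPM in GC pools and 199, 198 and 182 TPM in naive pools. This was a smaller decrease, of 1.35-fold (log2 fold change -0.43 ± 0.05, adjusted p = 0.000322, limma), and naive replicate 3 was the lowest naive pool. Fyn (ENSMUSG00000019843, chromosome 10, 39369743 to 39565381), best known in T cells and also present in B cells, went the other way. It was at 85.3, 82.1 and 88.5 TPM in GC pools and 44.6, 47.1 and 44.5 TPM in naive pools, 1.86-fold higher in GC (log2 fold change 0.90 ± 0.05, adjusted p = 1.59e-05, limma). Changes of at least this size were seen for 30.8% of all genes tested.

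Because TPM is per length, the kinases can be expressed as shares of their sum. Blk made up 54.0% ± 0.732 of the summed Lyn, Blk and Fyn TPM in naive pools and 39.7% ± 0.442 in GC pools (SD, n = 3 each). Fyn made up 8.76% ± 0.188 in naive and 22.5% ± 0.950 in GC pools, whereas the share of Lyn was 37.2% ± 0.883 and 37.7% ± 0.543, a difference smaller than the spread between pools. Lyn and Blk thus had nearly equal shares in GC B cells, where the sum of the 3 kinases was 379 ± 2.12 TPM against 518 ± 20.8 TPM in naive B cells. The ratio of Fyn to Blk was 0.567 ± 0.0301 in GC and 0.162 ± 0.00231 in naive pools. Other Src family kinases are left out of the sum. Of these, Lck had a higher mean than Fyn in GC (131 against 85.3 TPM) and in naive pools (65.5 against 45.4 TPM).

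**Figure D3:**
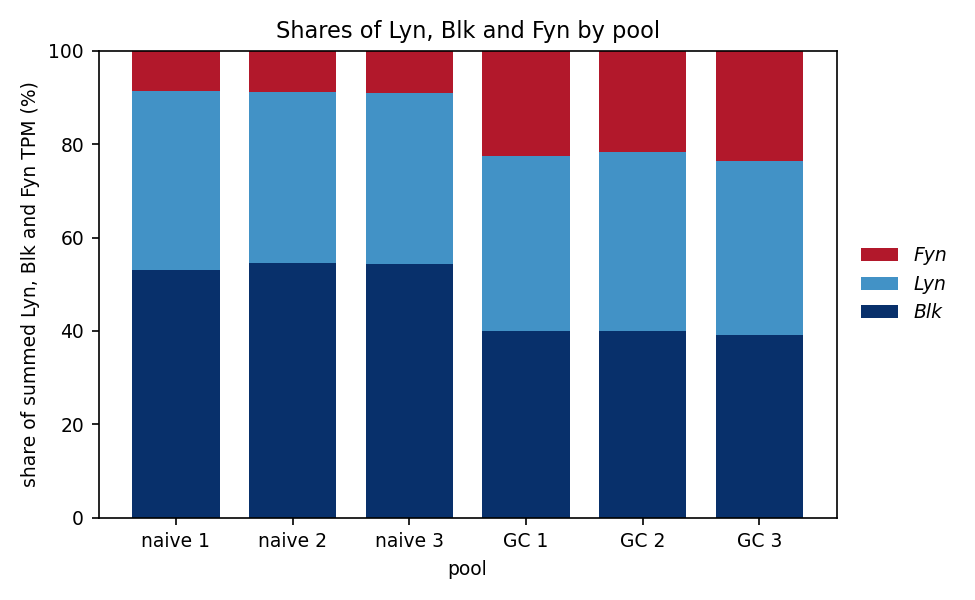
Share of the summed TPM of Lyn, Blk and Fyn held by each, in percent, for each naive and GC pool (stacked bars, 1 bar per pool). Blk shrinks from a naive mean of 54.0% to 39.7% in GC and Fyn widens from 8.76% to 22.5%, while Lyn holds 37.2% and 37.7%; the pools of a population look alike.

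Syk and its adaptor Blnk were modestly higher in GC B cells, and Btk was lower. Syk (ENSMUSG00000021457, chromosome 13, 52582610 to 52648792), the kinase recruited to the phosphorylated receptor, was at 302, 313 and 312 TPM in GC pools and 253, 250.3 and 234 TPM in naive pools. The GC mean was 1.26-fold higher (309 ± 5.81 against 246 ± 10.03 TPM; log2 fold change 0.33 ± 0.04, adjusted p = 0.000697, limma). Because Cd79a fell while Syk rose, the ratio of Syk to Cd79a TPM was 0.287 ± 0.0107 in GC and 0.105 ± 0.00623 in naive pools. Blnk (ENSMUSG00000061132, chromosome 19, 40928927 to 40994221) was at 293, 294 and 287 TPM in GC pools and 239, 235 and 237 TPM in naive pools. It was 1.23-fold higher in GC (log2 fold change 0.30 ± 0.03, adjusted p = 0.000341, limma), the smallest change of the 10, and 69.1% of all genes tested moved at least as far. Btk (ENSMUSG00000031264, chromosome X, 134542334 to 134583628), the Tec family kinase whose loss impairs B cell development, was at 108, 103 and 108 TPM in GC pools and 152, 158 and 145 TPM in naive pools. It was 1.42-fold lower in GC (log2 fold change -0.51 ± 0.05, adjusted p = 0.000162, limma), and its pools did not overlap.

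Plcg2 and Prkcb, which act on either side of the second messengers, changed in opposite directions. Plcg2 (ENSMUSG00000034330, chromosome 8, 117498275 to 117635142), the lipase that BTK and SYK activate, was at 257, 259 and 259 TPM in GC pools and 204, 203 and 186 TPM in naive pools. Its GC mean was 1.31-fold higher (258 ± 0.899 against 198 ± 9.98 TPM; log2 fold change 0.39 ± 0.05, adjusted p = 0.000479, limma). Prkcb (ENSMUSG00000052889, chromosome 7, 122289104 to 122634402), which encodes protein kinase C beta, was at 99.5, 95.9 and 97.7 TPM in GC pools and 189, 194 and 162 TPM in naive pools. It was 1.84-fold lower in GC (log2 fold change -0.88 ± 0.07, adjusted p = 7.47e-05, limma). Its naive pools varied most among the 10 genes, with a coefficient of variation of 9.19% set by the low value of naive replicate 3, and even that pool was well above every GC pool. Naive replicate 3 was also the lowest naive pool for Blk, Syk, Btk and Plcg2, as for Lyn, but the highest for Cd79a.

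Of 20 close relatives of these genes listed, 14 passed the filter of 1 TPM in 3 pools. Of the 14, 6 were higher and 5 lower in GC B cells (78.6% called, against 65.6% of all genes tested). Among Src family kinases, Lck, the T cell receptor kinase that some B cells also express, was 131 ± 4.56 TPM in GC and 65.5 ± 1.39 TPM in naive pools (log2 fold change 0.99, adjusted p = 5.75e-06, limma). All T cell markers were under 2 TPM, as given above, and the cell source of the Lck transcripts was not tested. Yes1 rose from 0.572 to 3.10 TPM (log2 fold change 1.38, adjusted p = 0.000142, limma).

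Among relatives of Blnk, the gene that passed the filter was Lcp2, which encodes SLP-76, the adaptor that fills the role of BLNK in T cells. It was 30.9 ± 0.307 TPM in GC pools and 0.467 ± 0.0988 TPM in naive pools (log2 fold change 4.44, adjusted p = 3.13e-07, limma). Blnk, at 291 ± 4.05 TPM, was still the more abundant adaptor in GC B cells. Zap70, the relative of Syk, was low in both at 0.609 and 2.06 TPM (log2 fold change -0.93, adjusted p = 0.00405, limma). For Tec, the next most abundant kinase of the Btk family, the means were 99.6 ± 4.12 and 99.4 ± 1.59 TPM in GC and naive pools (log2 fold change 0.00, adjusted p = 0.967, limma), and under quantile normalization the value was -0.13 with an adjusted p of 0.0448. Plcg1, the other phospholipase C gamma, was 20.0 ± 1.39 and 17.0 ± 1.09 TPM (log2 fold change 0.22, adjusted p = 0.0616, limma). It passed the threshold without GC replicate 3 (adjusted p = 0.0479, limma). It also passed after a correction for GC content and length, without and with the replicate number as a block (adjusted p = 0.0195 and 0.0352, limma). Plcg2 exceeded Plcg1 by 13.0 ± 0.956 times in GC and 11.6 ± 0.459 times in naive pools. Among protein kinase C genes, Prkcd, whose product is linked to B cell tolerance, rose from 215 ± 14.9 to 321 ± 3.50 TPM (log2 fold change 0.58, adjusted p = 0.000158, limma). The ratio of Prkcd to Prkcb was thus 3.29 ± 0.0880 in GC and 1.18 ± 0.0519 in naive pools. Prkce fell from 19.8 to 4.59 TPM (log2 fold change -1.89, adjusted p = 2.57e-05, limma).

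The rest of the pathway was divided between the directions. Across all lists outside the 10 genes, 79 of 91 genes were matched and passed the filter, and 22 were higher, 31 lower and 26 not called, which is 67.1% called against 65.6% of all genes. Their median log2 fold change was -0.02. Among the 4 genes that set the activity of Src kinases, 1 was higher and 3 were lower in GC (100% called, against 65.6% of all genes). Csk, the kinase that places the inhibitory phosphate, was 458 TPM in GC and 414 TPM in naive pools (log2 fold change 0.14, adjusted p = 0.00947, limma), a call that was lost under 3 other scalings (adjusted p = 0.0616 to 0.841). Pag1, which anchors CSK at the membrane, fell from 80.9 to 42.5 TPM (log2 fold change -0.90, adjusted p = 0.000283, limma), and the phosphatase Ptpn22 fell from 12.9 to 2.25 TPM (log2 fold change -2.13, adjusted p = 0.000263, limma).

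Of 12 inhibitors and attenuators of BCR signaling tested, 6 were lower and 2 higher in GC B cells, and 4 were not called. That is 66.7% called, against 65.6% of all genes tested (35.5% higher and 30.1% lower). Sla, an adaptor that promotes receptor degradation, fell from 85.2 ± 5.46 to 7.31 ± 0.411 TPM (log2 fold change -3.37, adjusted p = 3.20e-07, limma). Dgka, a kinase that removes diacylglycerol, fell from 136 ± 8.84 to 14.1 ± 2.12 TPM (log2 fold change -3.19, adjusted p = 1.47e-06, limma). The ubiquitin ligase Cbl was higher in GC (31.8 against 17.2 TPM; log2 fold change 0.87, adjusted p = 0.00173, limma). The number of these genes called higher was 1 without GC replicate 1 and under quantile normalization, and 5 after a correction for GC content and length.

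Of the other adaptors, 2 were higher and 4 lower of 9 tested (66.7% called, against 65.6% of all genes). Bank1, a B cell scaffold that binds LYN, fell from 301 ± 16.9 to 43.6 ± 2.70 TPM (log2 fold change -2.76, adjusted p = 3.74e-07, limma), and Lat, low throughout, fell from 3.93 to 1.87 TPM (log2 fold change -0.78, adjusted p = 0.0116, limma). Grb2, which links receptors to Ras, rose from 397 ± 3.72 to 595 ± 12.5 TPM (log2 fold change 0.58, adjusted p = 1.59e-05, limma), and Pik3ap1, the PI3K adaptor BCAP, rose from 175 to 228 TPM (log2 fold change 0.38, adjusted p = 0.00315, limma). In the Vav, Rac and PI3K branch, 3 were higher and 3 lower of 10 tested, and 5 were lower under quantile normalization and under size factors. Akt1, the kinase downstream of PI3K, was the gene with the largest rise there, from 98.9 ± 0.831 to 292 ± 3.74 TPM (log2 fold change 1.55, adjusted p = 3.53e-07, limma). Pik3cd, the PI3K catalytic subunit of lymphocytes, rose from 154 to 196 TPM (log2 fold change 0.34, adjusted p = 0.00136, limma). Vav3 fell from 4.74 to 0.240 TPM (log2 fold change -2.23, adjusted p = 0.000124, limma). Pik3r1 was 22.2 TPM in GC and 26.9 TPM in naive pools (log2 fold change -0.27, adjusted p = 0.0296, limma), a call lost when any pool but naive replicate 3 was left out (adjusted p = 0.0515 to 0.0916).

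Downstream of the lipase, the calcium branch had 2 genes higher, 4 lower and 7 not called of 13 tested (46.2% called, against 65.6% of all genes). The plasma membrane calcium channel Orai1 fell from 21.6 to 6.88 TPM (log2 fold change -1.54, adjusted p = 8.47e-05, limma) and the calcineurin subunit Ppp3ca from 105 to 36.3 TPM (log2 fold change -1.50, adjusted p = 1.29e-05, limma). The calcium sensor Stim2 rose from 20.2 to 27.9 TPM (log2 fold change 0.44, adjusted p = 0.00188, limma), and the calcineurin subunit Ppp3cb was 88.1 TPM in GC and 71.8 TPM in naive pools (log2 fold change 0.30, adjusted p = 0.0368, limma). The Ppp3cb call was lost when any GC pool was left out (adjusted p = 0.0578 to 0.104). In the Ras and ERK branch 6 were higher and 3 lower of 13 (69.2% called). Hras rose from 22.2 to 51.4 TPM (log2 fold change 1.17, adjusted p = 5.78e-05, limma). Map2k1, which encodes MEK1, fell from 126 to 98.4 TPM (log2 fold change -0.35, adjusted p = 0.00205, limma).

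**Figure D4:**
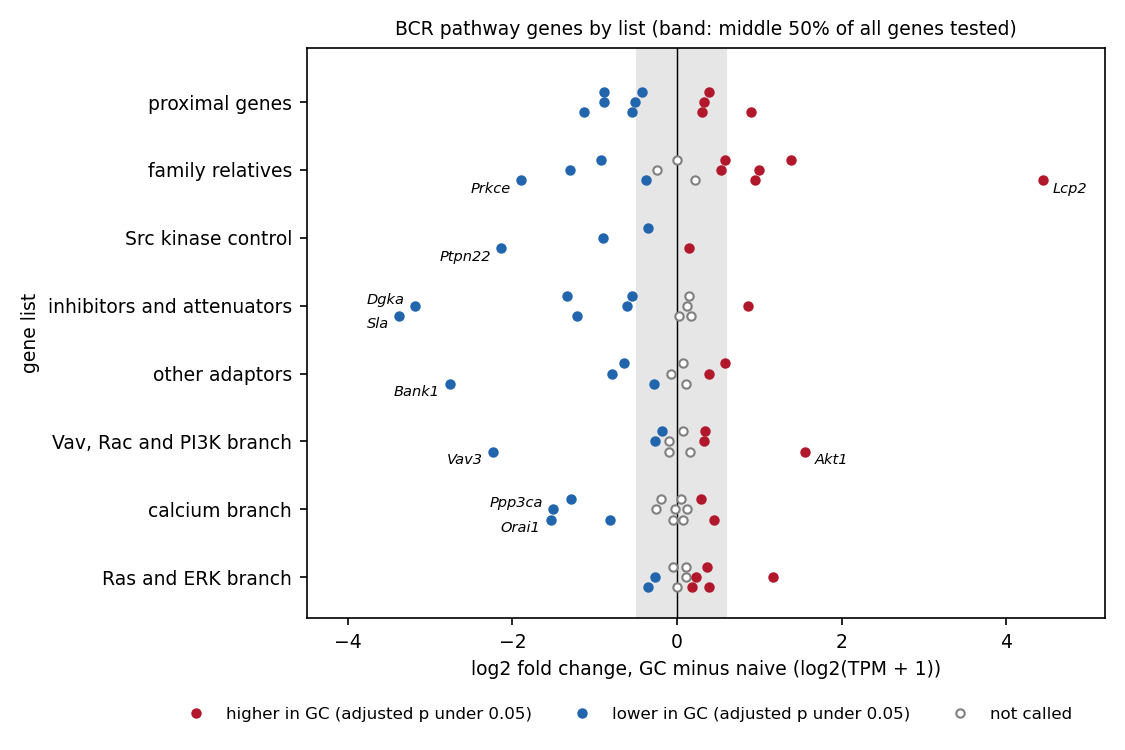
Log2 fold change, GC minus naive, on the log2(TPM + 1) scale for the 10 proximal BCR genes and for most of the tested genes of 7 further pathway lists (1 row per list); filled points passed an adjusted p under 0.05 and the band holds the middle 50% of all genes tested. The proximal genes lie between -1.12 and 0.90, and among their family relatives shown Prkce is at -1.89 and Lcp2 at 4.44.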

How the data were processed

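RNA from 3 pools of GC and 3 pools of naive B cells was sequenced. Per the study's methods and the submitters' processing notes, the authors used CASAVA 1.8, FastQC, cutadapt 1.9 and RSEM 1.2.25 against the NCBIm38 transcriptome, with a fragment length of 180 ± 50 bases. The role of edgeR, which the notes also name, and whether counting used strand are not given in the sources used here, so reads of genes that overlap on opposite strands may not be told apart. RSEM divides reads shared by similar genes, so levels of related kinases are estimates. The deposited values are FPKM for 39179 Ensembl identifiers, and the columns total 717537 to 774597.

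Each column was rescaled to a total of 1000000 (TPM). The 12785 genes that reached 1 TPM in 3 or more pools were fitted as log2(TPM + 1) with limma 3.58.1 in R 4.3.3 (lmFit, eBayes with trend), 2-sided, with Benjamini-Hochberg adjustment over all of them. Values are mean ± SD, and log2 fold changes carry the SE. No count test was run because the values are not counts. The code was tested on simulated data. Symbols came from gene annotation and RefSeq (33398 identifiers named; Syk was matched by its RefSeq synonym), gene positions and promoters from RefSeq on GRCm38.p6, the same build as the data.

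The genes and lists were chosen with earlier results of these data known, so no test was run over a list. Named besides the 10 genes were, of each list, the 2 called genes with the largest change in each direction, the most abundant relative of each family, and Fas; a few genes and 1 list are not reported here, though counts over lists include them. Same-numbered pools did not deviate together beyond the limit set for pairing (correlations of 0.083, 0.0225 and 0.0456, where over 0.1 was asked of each). Alternatives were another pseudocount, filter, unit or scaling, a replicate block, leaving out each pool, and a correction for GC content and length.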

Additional observations from a re-analysis of the deposited data

How the results depend on the processing

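Of 16 alternative settings, 14 were planned and the correction for GC content and length, with and without the block, was chosen after seeing the data. All 10 proximal BCR genes kept their direction and passed the threshold in every one (160 of 160 values; the largest adjusted p was 0.0113, for Blnk). Over all genes, calls numbered 7656 to 8101 when a pool was left out and 7180 to 8639 over the other settings, against 8392. These counts depend on how many genes each setting tested. The 7180 calls were of 10277 genes (at least 5 TPM in 3 pools) and the 8639 of 20845 (no filter), against 8392 of 12785. The correction for GC content and length tested 11031 genes. With the replicate number as a block there were 7960 calls, 7795 of them among the 8392, and no call of a proximal gene changed. Each GC pool correlated best with the naive pool of its own number, a hint from the data. Both populations were sorted from littermate mice, and whether same-numbered pools shared mice is not stated in the sources used here. Tec, not called in the main fit, was called at -0.13 under quantile normalization, and Plcg1 was called under the settings given with it. Calls of Csk, Pik3r1 and Ppp3cb were lost under the settings given with them, Pik3r1 (adjusted p = 0.0651) and Ppp3cb (0.0657) also with the block, and Ppp3cb with no filter (0.0604) and quantile normalization (0.19). List counts that moved by more than 1.5 times were the Src kinase control genes called higher (0 under 3 scalings), the inhibitors called higher (1 to 5), the calcium genes called higher (1) and the Vav, Rac and PI3K genes called lower (5). The causes were not tested. With 3 pools a group and no counts, precision rests on the spread between pools, which limma draws toward a trend over all genes tested.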

Other observations

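Ptpn6, which encodes the phosphatase SHP-1 that damps BCR signaling, was picked out after its values were seen because its GC pools were uneven. GC replicates 1, 2 and 3 held 625, 1058 and 703 TPM of it, and the naive pools 1728, 1831 and 1822 TPM, so the GC pools stayed below every naive pool (log2 fold change -1.21 ± 0.19 SE, adjusted p = 0.00139, limma). GC replicate 2, the highest GC pool for Ptpn6, also had the highest epithelial marker sum among GC pools, 136 TPM against 61.6 and 66.6 TPM. The part of these transcripts in the value was not tested.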
